A study of Mus musculus with 2 samples.

Results

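The cytosolic ribosomal protein genes were taken by name: every symbol present in both expression tables that starts with Rps or Rpl and a digit, and Rpsa, Rplp0, Rplp1 and Rplp2, without symbols holding -ps and without the S6 kinases. The rule gave 85 of 19831 genes. Of these, 77 encode core proteins of the ribosome (31 of the small subunit and 46 of the large subunit, among them the 3 proteins of the stalk), 7 are paralogs of a core gene (Rps27l, Rps27rt, Rpl22l1, Rpl7l1, Rpl36al, Rpl3l and Rpl39l), and Rps19bp1 encodes a protein that binds Rps19 and is not part of the ribosome. The cells were endothelial cells sorted on CD31, an endothelial surface protein, from tumours of adult C57BL/6 mice. One 10x library was labelled control and one NF2 KO, a knockout of the gene Nf2, which encodes merlin, a membrane-associated protein upstream of Hippo signalling. The Cre line, the exons removed, the tumour type and the number of mice are not given in the sources used here.

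The ribosome reads messenger RNA with its small subunit and forms peptide bonds on its large subunit. Each of its proteins is held in one copy per subunit, except for the acidic stalk proteins. Most of these messenger RNAs begin with a short run of pyrimidines, the terminal oligopyrimidine (TOP) motif, through which the mTORC1 pathway controls their translation. Their messages are among the most abundant in any cell, and in growing endothelium they are made alongside the factors that assemble ribosomes in the nucleolus. Fau and Rack1 also encode ribosomal proteins but fall outside the naming rule.

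The cells described held 29084733 UMIs (molecules counted by their unique molecular identifier) in 1477 control cells and 53370317 UMIs in 2809 NF2 KO cells, with medians of 17269 and 16895 UMIs per cell. Each library had barcodes of 2 runs, whose meaning the labels do not state. They are shown as parts of a library and not as replicates. With 1 library per group no test was possible: every interval below is at 95% and covers counting error only, and PCR and droplet effects, animals and libraries are outside it. A level is given as CPM, the UMIs of a gene per 1000000 UMIs summed over a library, a run or a state. With 3′ tags a molecule is counted once whatever its length, so CPM was not divided by length. Nf2 itself was at 22.1 CPM in control cells (runs 21.6 and 22.7) and 20.3 CPM in NF2 KO cells (20.3 and 20.3), a ratio of 0.915 (0.829 to 1.01). A 3′ tag outside the removed exons does not check a deletion. Endothelial markers summed to 11635 CPM in control cells and 9068 CPM in NF2 KO cells, against 96.3 and 124 CPM for macrophage markers, 72.1 and 81.2 CPM for neutrophil markers and 180 and 63.8 CPM for pericyte markers.

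Start-site sequences are shown for the members at both ends of the order of ratios given below, because the pyrimidine run at the start is what these genes are known to share. RefSeq starts (GRCm38.p6) were matched for 65 of the 85 members. For each gene only the most upstream start was used, which need not be the start used in these cells. Each line holds 45 bases before and 15 from the start, 5′ to 3′ on the strand of the gene, and capitals mark runs of at least 6 C or T. The first 4 have the highest ratios among matched members named by the rule, the next 4 the lowest, and Rpl35 is added as an example of the CTTTCC motif, chosen after its sequence was seen.
Rps27l (chr9:66946041-66946100, plus strand): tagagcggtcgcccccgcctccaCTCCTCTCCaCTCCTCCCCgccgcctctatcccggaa
Rps26 (chr10:128626492-128626551, minus strand): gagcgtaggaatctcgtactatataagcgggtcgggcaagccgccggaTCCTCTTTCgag
Rps28 (chr17:33824548-33824607, minus strand): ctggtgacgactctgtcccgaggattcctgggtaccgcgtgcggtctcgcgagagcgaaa
Rps19 (chr7:24884547-24884606, plus strand): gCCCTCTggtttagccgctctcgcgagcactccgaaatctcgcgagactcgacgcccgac
Rpl10 (chrX:74270771-74270830, plus strand): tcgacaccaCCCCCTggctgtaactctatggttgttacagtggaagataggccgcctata
Rpl5 (chr5:107900483-107900542, plus strand): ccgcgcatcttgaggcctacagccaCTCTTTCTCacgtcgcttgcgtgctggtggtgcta
Rps6 (chr4:86857353-86857412, minus strand): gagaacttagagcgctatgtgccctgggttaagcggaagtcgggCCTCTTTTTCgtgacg
Rpl31 (chr1:39367806-39367865, plus strand): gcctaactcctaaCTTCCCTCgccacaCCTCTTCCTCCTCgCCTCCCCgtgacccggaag
Rpl35 (chr2:39005117-39005176, minus strand): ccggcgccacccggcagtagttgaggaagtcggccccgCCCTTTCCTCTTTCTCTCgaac

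Runs of pyrimidines are seen in the windows at both ends of the order. The longest is 9 bases in Rps27l, Rps26 and Rpl5, 10 in Rps6 and 13 in Rpl31, while the window of Rps28 holds no run of 6. All marked runs of Rps27l, Rps19, Rpl10 and Rpl5, and the longest of Rpl31, lie before the start. They are thus not part of the message as annotated. A run covers the start in Rps6, Rpl31 and Rpl35, and that of Rps26 lies just after it. Over the 65 matched members, a run of at least 8 C or T within 20 bases of the start was found on the sense strand in 43.1%. The share was 15.9% over all 27025 starts, each the most upstream RefSeq start of its gene. A run of at least 8 A or G in the same place, the same search on the other strand, was found in 4.62% of members and 17.4% of all starts. CTTTCC within 50 bases of the start was found on the sense strand in 27.7% of members and 4.67% of all starts, and on the antisense strand in 3.08% and 4.24%. CCGGAA, the core bound by ETS factors, was found on either strand from 250 bases before to 50 after the start in 50.8% of members, 15.2% of all starts and 31.7% of starts of genes with at least 20 CPM. GGGCGG, the core bound by Sp1, was found in the same window in 60.0% of members, 35.9% of all starts and 69.4% of starts of genes with at least 20 CPM. These are matches of letters and not binding sites, and CTTTCC overlaps the pyrimidine runs by construction.

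The members together held more of the RNA in the NF2 KO library. Their UMIs were 16.0% of all UMIs in the control (15.9% in run 1 and 16.1% in run 2) and 18.1% in the NF2 KO library (18.1% in both runs), so each NF2 KO run stood above each control run. The ratio of the shares, NF2 KO over control, was 1.127 (1.126 to 1.128). The difference was alike in both subunits: the 31 small-subunit genes had a ratio of 1.129 (1.127 to 1.131), the 46 large-subunit genes 1.125 (1.123 to 1.126), and the stalk genes Rplp0, Rplp1 and Rplp2, which recruit elongation factors, 1.10 (1.094 to 1.105). Small-subunit genes were 45.1% and 44.7% of the UMIs of the core members in the control runs and 44.9% and 44.9% in the NF2 KO runs, in cells of at least 10000 UMIs, each thinned to that number. In those cells the summed level of the small subunit followed that of the large subunit closely, with Spearman's rho from 0.94 to 0.96 over the cells of each of the 4 runs, at 534, 557, 844 and 1370 cells. The points of these correlations share their cell and its depth, so they are descriptions.

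**Figure D1:**
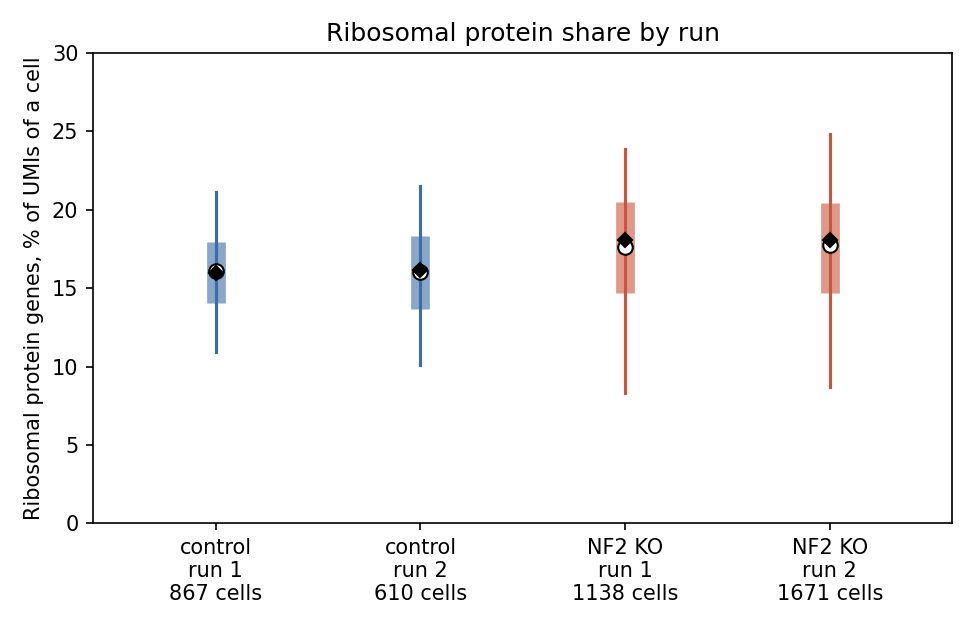
Share of a cell's UMIs that came from the 85 ribosomal protein genes (vertical axis, percent), by library and run (horizontal axis). Thick bars are the quartiles of cells, thin lines the 5th to 95th percentile, open circles the median cell and black diamonds the share of the summed UMIs. Both NF2 KO runs, at 18.1%, lie above both control runs, at 15.9% and 16.1%, and their cells reach both higher and lower.

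The shift was small in each gene and shared by nearly all. Of the 83 members with a mean of at least 20 CPM, 79 had a ratio above 1, against 44% of all 5839 genes at that level and 47.3% of the 702 non-members with at least 200 CPM. The median log2 ratio of the members was 0.17 (quartiles 0.12 and 0.22), and that of all genes was −0.03 (−0.18 and 0.11). The interval of the ratio lay above 1 in 77 members, against 28.1% of all genes, and below 1 in 2, against 39.4%. These shares of all genes are not matched for abundance, and intervals are narrower in abundant genes. Both NF2 KO runs stood above both control runs in 71 members, against 27.4% of all genes. The share was 37.5% of the 781 genes with at least 200 CPM, members among them. Both NF2 KO runs stood below both control runs in 0 of the 83, against 37.5% of all genes. The runs overlapped in the other 12. No member passed the size rule, which asks for a ratio of at least 1.5 in either direction with an interval that excludes 1. Of all genes 8.2% did, 2.83% higher and 5.38% lower in the NF2 KO library. A ratio of 5 to 4 or more was reached by 4 members, against 6.54% of all genes: Rps27l, Rps26, Rps28 and Rpl36. When each member was expressed as a share of the members' own UMIs, 42 of the 83 had a ratio above 1 and the median log2 ratio was 0.0017, as that scale sets the sum of the members equal in both libraries. On it the median of all genes moved from −0.03 to −0.20.

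**Figure D2:**
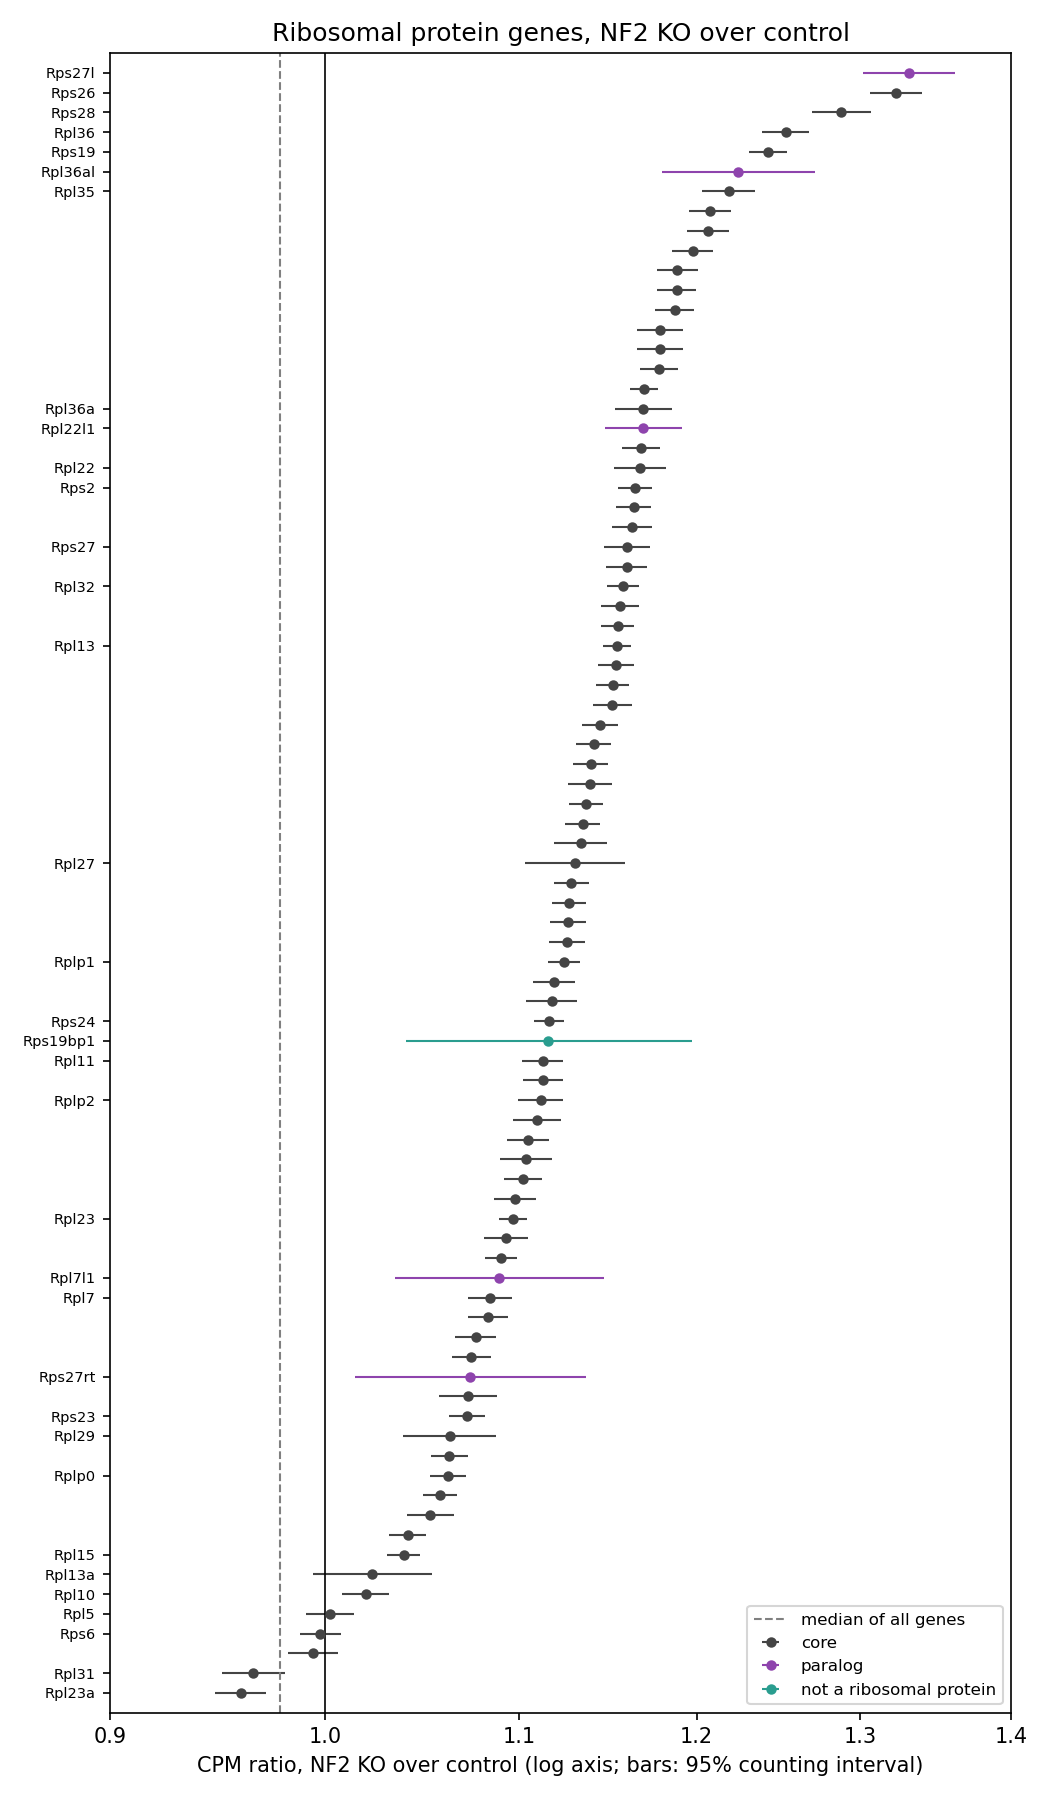
Ratio of CPM, NF2 KO over control (horizontal axis, log scale), for the 83 ribosomal protein genes with a mean of at least 20 CPM (vertical axis, ordered by ratio). Points are ratios and bars their 95% counting intervals. Genes described in the text are labelled. The vertical black line marks 1 and the dashed line the median of all genes. Ratios run from 0.959 for Rpl23a to 1.33 for Rps27l, with 79 to the right of 1.

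Among small-subunit genes, Rps26 had the highest ratio. It was at 1084 and 1229 CPM in the control runs and at 1477 and 1566 CPM in the NF2 KO runs, a ratio of 1.32 (1.31 to 1.34). Rps28, at the messenger RNA exit of the small subunit like Rps26, was at 874 and 892 CPM in the control runs and at 1138 and 1138 CPM in the NF2 KO runs, a ratio of 1.29 (1.27 to 1.31). Rps19, the gene most often mutated in Diamond-Blackfan anaemia, was at 2140 and 2365 CPM in the control runs and at 2870 and 2771 CPM in the NF2 KO runs, a ratio of 1.24 (1.23 to 1.254). In these 3 genes every NF2 KO run was above every control run. At the other end stood Rps6, the substrate of the S6 kinases. Rps6 was at 2057 and 1980 CPM in the control runs and at 1995 and 2021 CPM in the NF2 KO runs, a ratio of 0.998 (0.988 to 1.01). Its NF2 KO runs lay inside the range of the control runs.

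Among large-subunit genes, Rpl36 was highest, at 1299 and 1498 CPM in the control runs and 1692 and 1795 CPM in the NF2 KO runs, a ratio of 1.254 (1.24 to 1.27). The lowest were Rpl23a and Rpl31, whose proteins sit around the exit of the peptide tunnel. Rpl23a was at 1477 and 1108 CPM in the control runs and at 1236 and 1231 CPM in the NF2 KO runs, a ratio of 0.959 (0.947 to 0.972). Rpl31 was at 966 and 781 CPM in the control runs and at 833 and 843 CPM in the NF2 KO runs, a ratio of 0.965 (0.951 to 0.980). Although both intervals lie below 1, the NF2 KO runs fell between the control runs, so the sign of these 2 ratios depends on which control run is used. Rpl5, which with Rpl11 binds Mdm2 when ribosome assembly fails, was at 1549 and 1340 CPM in the control runs and at 1477 and 1425 CPM in the NF2 KO runs, a ratio of 1.002 (0.991 to 1.01). Its partner Rpl11 had a ratio of 1.11 (1.10 to 1.12), with both NF2 KO runs above both control runs.

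The most abundant members by mean CPM included Rpl13, Rpl23, Rps24 and Rpl32. Rpl13 went from 4062 to 4688 CPM, with a ratio of 1.15 (1.15 to 1.16), and Rpl23 from 4113 to 4510 CPM, with a ratio of 1.10 (1.09 to 1.10). Rps24 had a ratio of 1.12 (1.11 to 1.12) and Rpl32 one of 1.16 (1.15 to 1.17). In all 4 both NF2 KO runs stood above both control runs. Across the 77 core members the log2 ratio did not follow the level, with Spearman's rho of 0.03 against log2 control CPM, and was lower in longer transcripts, with rho of −0.33 against the length of the principal transcript. The median ratio was 1.15 in the 25 shortest, 1.13 in the 27 of middle length and 1.11 in the 25 longest. Ratios between the 2 runs of a library also leaned with length: rho was −0.16 for run 2 over run 1 of the control and −0.29 for the NF2 KO runs. The run ratios of the control and of the NF2 KO library were themselves correlated over the 77 genes (rho 0.45). Genes are not independent replicates, and all of these values share the same libraries.

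Besides Rpl29, described below, 2 core genes were well below the others. Rpl27 was at 323 and 365 CPM and Rpl13a at 237 and 243 CPM in the control and NF2 KO libraries. Both have near-identical processed copies, and how reads shared with a copy were counted is not given. Whether the copies account for these low levels was not tested. The copy Rpl27-ps3, left out by the rule, held 8.92% of the summed UMIs of the pair in the control and 8.84% in the NF2 KO library. Other copies held 2.70% (Rpl10-ps3) or less in either library. Levels of genes with such copies are uncertain for that reason.

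Paralogs were also described by their share of the UMIs of a pair, the paralog and its core partner. Rps27l, a paralog of Rps27 and a known p53 target, had the highest ratio of all 83 members. It was at 356 and 369 CPM in the control runs and at 520 and 463 CPM in the NF2 KO runs, a ratio of 1.33 (1.30 to 1.36), against 1.16 (1.15 to 1.17) for Rps27. Rps27l was 19.6% (19.3 to 19.9) of the UMIs of the pair in the control and 21.9% (21.6 to 22.1) in the NF2 KO library. By run the share was 20.2% and 19.1% in the control and 23.9% and 20.8% in the NF2 KO library, so the distance between the NF2 KO runs was larger than that from the higher control run to the lower NF2 KO run. Of the genes in a list on p53 and ribosomal stress, which does not hold Rps27l, 10 had at least 20 CPM: Ccng1 (1.65, 1.502 to 1.81) and Gadd45a (1.57, 1.45 to 1.69) were higher by the size rule, Plk2 was 1.94-fold lower, and 7 did not pass.

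Over the states with at least 30 cells of each library, the Rps27l share differed more between states than between the libraries. The lowest share in the states with at least 30 cells of each library was in the hypoxia and glycolysis-like cells, at 12.5% (11.5 to 13.5) in the control and 12.9% (12.3 to 13.5) in the NF2 KO library. The highest shares among these states were in the 2 states of dividing, G2/M-like cells. They were 27.9% and 26.1% in the control and 26.8% and 28.0% in the NF2 KO library. S phase-like cells had 23.2% and 25.5%. Both partners moved: in the control, Rps27l was at 228 CPM in the hypoxia-like state and 462 CPM in the G2/M-like state with histone genes, where Rps27 was at 1590 and 1193 CPM. Each library gave the same order for these 3 kinds of state. The interferon-like state led by Cd74 differed between the libraries, at 15.1% (14.2 to 16.0) and 19.3% (18.5 to 20.1). A high share was not confined to dividing cells. The capillary-like state with Lpl and Cd36 had 26.2% (25.2 to 27.1) in 262 NF2 KO cells, above the S phase-like cells. Its 17 control cells, too few for the order above, had 16.8% (12.9 to 21.4).

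Rpl22l1, the paralog of Rpl22 that shares its RNA-binding fold, did not follow that course. It was 31.1% (30.7 to 31.5) of its pair in the control and 31.1% (30.8 to 31.4) in the NF2 KO library, with all 4 runs between 30.7% and 31.5%. The ratios of Rpl22l1 (1.17, 1.15 to 1.19) and Rpl22 (1.17, 1.15 to 1.18) were equal within counting error. The lowest share was in the venous-like cells, at 25.7% in the control and 25.8% in the NF2 KO library. Rpl7l1, a paralog of Rpl7 with a role in ribosome assembly, was 4.26% and 4.27% of its pair. It ranged from 2.6% in both libraries in the hypoxia-like cells to 6.8% and 6.2% in the G2/M-like cells led by Cenpa and Cdc20. Rpl36al, whose ratio was 1.22 (1.18 to 1.27) beside 1.17 (1.15 to 1.18) for Rpl36a, was 11.9% (11.6 to 12.3) and 12.4% (12.2 to 12.7) of its pair. Rps27rt, a retrotransposed copy of Rps27 on which reads of Rps27 could be counted, had a ratio of 1.07 (1.02 to 1.14), and its runs overlapped.

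The 2 tissue-restricted paralogs were rare and lower in the NF2 KO library. Rpl3l, known from heart and skeletal muscle, had 63 UMIs in the control and 15 in the NF2 KO library, a CPM 7.71-fold lower (4.34 to 14.6). A UMI of Rpl3l was found in 50 of 1477 control cells (3.39%, 2.52 to 4.44) and 14 of 2809 NF2 KO cells (0.498%, 0.273 to 0.835). Control run 1 held 46 of the 63 UMIs, and 57 of them came from the unnamed Gal and Kcnj8 state and the hypoxia-like state, which held 35 and 22. Rpl39l, known from testis, had 112 and 64 UMIs, a CPM 3.21-fold lower (2.34 to 4.44). It was found in 35 control and 20 NF2 KO cells, with 12 and 10 UMIs in the cell that held most. Neither reached 20 CPM, and neither is counted above. Their levels were 2.17 and 3.85 CPM in the control library. Free RNA in droplets was not measured.

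Rpl29 stood apart from every other member, within the libraries and not between them. This gene of a large-subunit protein that also binds heparin lies at chr9:106429454-106431568 on the plus strand. It was singled out after its values were seen. Rpl29 was at 640 CPM in run 1 and 144 CPM in run 2 of the control, and at 600 CPM in run 1 and 299 CPM in run 2 of the NF2 KO library. The run ratio of 4.44 in the control was the largest of 1616 genes with at least 100 CPM, and that of 2.004 in the NF2 KO library was the third largest. The ratio between libraries was 1.06 (1.04 to 1.09) but rested on the mixture of runs. Leaving out control run 1 gave 2.81, control run 2 0.634, NF2 KO run 1 0.785 and NF2 KO run 2 1.57. In 3 of these 4 cases Rpl29 passed the size rule, higher in 2 and lower in 1, and no other member did.

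In 3 of the 4 runs single cells spread over a low and a high class of Rpl29. In cells of at least 10000 UMIs, 60.7% (56.4 to 64.8) of 534 cells in control run 1 had at least 400 CPM of Rpl29, and 0.898% (0.292 to 2.08) of 557 cells in control run 2 did. In the NF2 KO library the share was 67.8% (64.5 to 70.9) of 844 cells in run 1 and 26.8% (24.5 to 29.2) of 1370 cells in run 2. Near the limit, 4.31% and 5.39% of cells in the control runs and 14.1% and 11.97% in the NF2 KO runs were between 300 and 500 CPM. The median cell was at 707 and 135 CPM in the control runs and at 604 and 204 CPM in the NF2 KO runs.

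**Figure D3:**
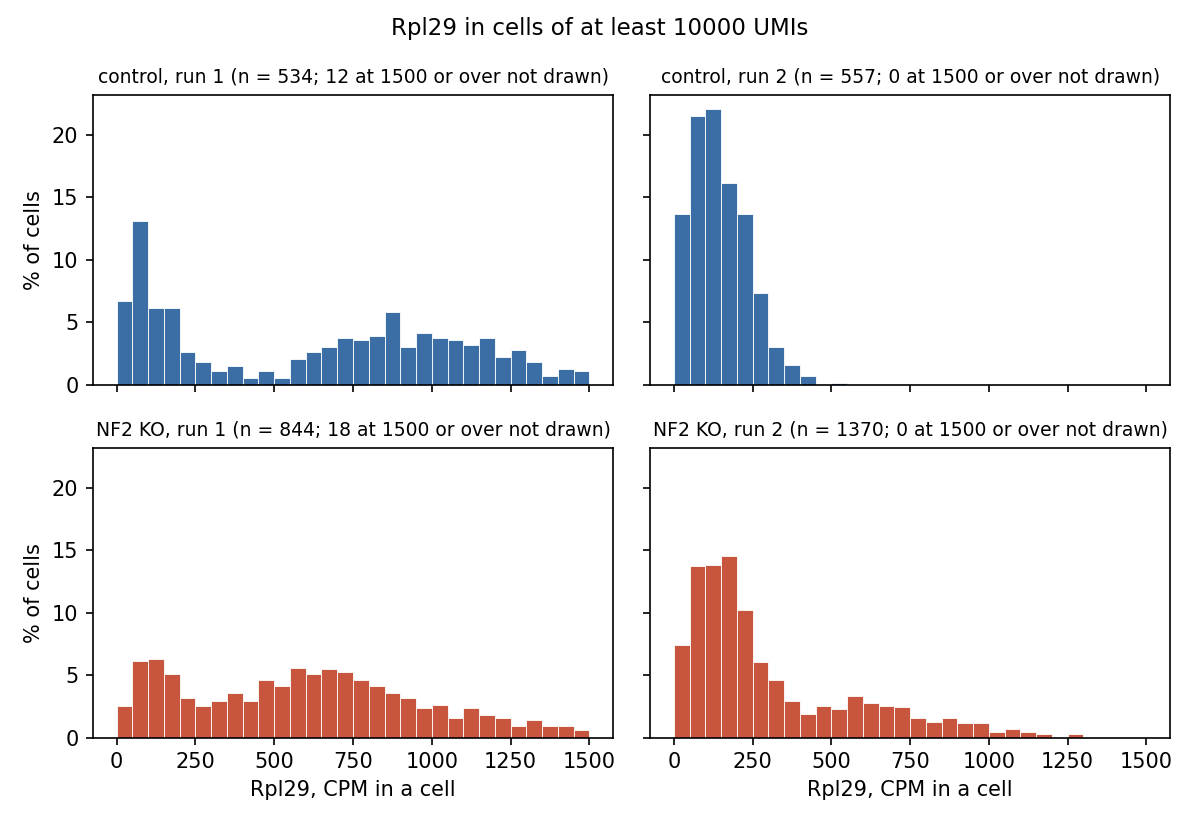
Share of cells (vertical axis, percent) by level of Rpl29 in the cell (horizontal axis, CPM in steps of 50), in cells of at least 10000 UMIs of each run. Cells at 1500 CPM or over, 12 in control run 1 and 18 in NF2 KO run 1, are counted in the percentages but not drawn. Control run 1 and NF2 KO run 1 spread over a low and a high class, and control run 2 holds only the low one apart from 5 of its 557 cells at 400 CPM or over.

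In the thinned cells the members varied together, and Rpl29 did so least. Spearman's rho between a core member and the sum of the rest had a median of 0.53 and 0.59 over the control runs and 0.60 and 0.65 over the NF2 KO runs. Rpl29 had the lowest value in each of the 4 runs, at 0.19, 0.15, 0.21 and 0.17. Few counts also lower rho, and counting noise was not removed from it. Rpl29 held 6.48 and 1.41 UMIs per thinned cell in the control runs and 6.22 and 3.04 in the NF2 KO runs. Rpl13a held 2.63 and 2.23 in the control runs and 2.66 and 2.28 in the NF2 KO runs. Rpl32 had the highest in the NF2 KO runs (0.76 and 0.80). The variance of Rpl29 counts over their mean was above the trend of the members by 2.93-fold in control run 1, 2.23-fold in NF2 KO run 1 and 2.31-fold in NF2 KO run 2, the first of 82 members each time. It was at the trend (1.004) in control run 2, where Rps27l ranked first with 1.41. The gene whose level went with Rpl29 most closely in control run 1, among 3155 genes, was Tpm3-rs7 (chr14:113314608-113316754, plus strand), a retrotransposed copy of the tropomyosin gene Tpm3, with rho of −0.69. Tpm3 followed with 0.45 and Cd74 with −0.43. Tpm3-rs7 was again the first in NF2 KO run 2 (−0.21 over 1370 cells) but had rho of 0.02 in control run 2. In NF2 KO run 1 Rps15a was the first (0.30 over 844 cells), Tpm3 was the seventh (0.20), and Tpm3-rs7 was under the minimum of 0.5 UMIs per thinned cell set for the genes compared. Control cells held 158 CPM of it and NF2 KO cells 69.0 CPM. The strain label names C57BL/6 for both libraries. The cause of the split was not tested.

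The share of member UMIs differed by cell depth, and not in the same way in both libraries. In the control cells described it was nearly level, at 16.5%, 16.7%, 15.3%, 15.9%, 16.1% and 16.3% of summed UMIs in cells of 1000 to 2000, 2000 to 5000, 5000 to 10000, 10000 to 20000, 20000 to 40000 and at least 40000 UMIs. In the NF2 KO library it was 14.0%, 12.4%, 15.1%, 17.7%, 18.7% and 18.7%. The NF2 KO value was below the control in the 3 bins under 10000 UMIs and above it in the 3 bins from 10000 UMIs. This order depends on the removal of shallow clusters. In all deposited cells of at least 1000 UMIs the same bins gave 17.7%, 18.0%, 16.9%, 16.0%, 16.2% and 16.2% in the control. The NF2 KO library gave 18.0%, 16.7%, 15.8%, 17.7%, 18.6% and 18.7% there, above the control in the lowest bin as well. Among the cells described, the lowest bins are thin in some runs, with 5 and 12 cells of control run 2 and 6 and 64 cells of NF2 KO run 1 in the first and second bin. In the third bin, control run 2 had 13.5% and lay below both NF2 KO runs (15.2% and 15.04%), while control run 1 had 15.9%. Without control run 1 the NF2 KO library was above the control in 4 of the 5 bins with at least 10 cells of each. Over single cells, Spearman's rho between share and depth was −0.01 in the control (1477 cells) and 0.30 in the NF2 KO library (2809 cells).

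**Figure D4:**
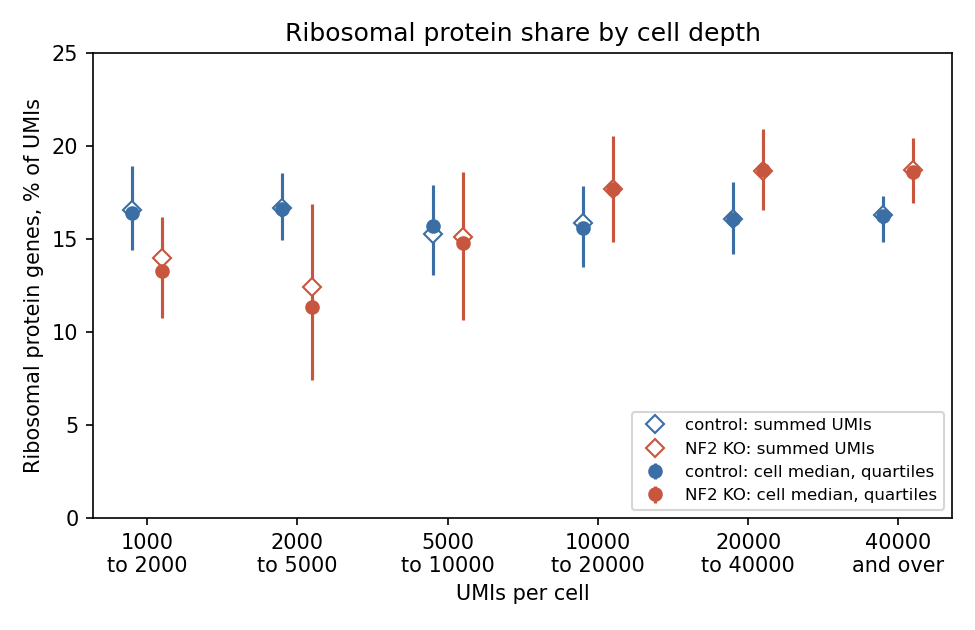
Share of UMIs from ribosomal protein genes (vertical axis, percent) by UMIs per cell (horizontal axis, 6 bins) in the cells described of the control and NF2 KO libraries. Filled circles with bars are the median cell and the quartiles, and open diamonds the share of the summed UMIs. The control stays between 15.3% and 16.7%, while the NF2 KO library goes from 12.4% in cells of 2000 to 5000 UMIs to 18.7% from 20000 UMIs.

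Cells with a low share were also marked by other RNA. Under 10% of UMIs from members was found in 53 control cells (3.59%) and 230 NF2 KO cells (8.19%), and over 25% in 19 (1.29%) and 113 (4.02%). In the low class, the nuclear RNA Malat1, the ribosomal-RNA-overlapping transcripts Gm42418, Gm26917 and AY036118, and Lars2 together held 10.7% of UMIs in the control and 13.5% in the NF2 KO library, against 3.08% and 4.60% in cells between 10% and 25%. The median mitochondrial share was 5.64% and 6.39%, against 3.26% and 3.24%. Over all cells these 5 transcripts held 3.21% of UMIs in the control (3.07% and 3.33% by run) and 4.96% in the NF2 KO library (5.17% and 4.85%). Of the 6 tested genes of the RNA quality list, Malat1, Gm42418, Gm26917 and Lars2 were higher by the size rule. AY036118 had a ratio of 0.924 and the nuclear RNA Neat1 one of 0.899, neither past it. The 5 transcripts are commonly read as signs of damaged cells or nuclei. Their part in the differences of the members was not tested. With Malat1, Gm42418, Gm26917, Lars2 and the mitochondrial transcripts left out of the total, the ratio of the members' share was 1.15, and without the cells under 10% it was 1.14. In each of these cases the NF2 KO share was above the control in 4 of the 6 depth bins, in place of 3. The cut at 10% picks cells by the share itself and takes a larger part of the NF2 KO cells. Its values are therefore no independent check.

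Across endothelial states, the share was higher in the NF2 KO library in 7 of the 8 states that held at least 30 cells of each library. In those 7, both NF2 KO runs stood above both control runs. States were clusters made without the member genes and named only from fixed markers. The ratio was highest in the hypoxia and glycolysis-like cells and in 1 of the G2/M-like states, whose intervals overlap. The hypoxia-like cells had 16.4% in the control (16.3% and 16.6% by run) and 19.8% in the NF2 KO library (19.1% and 20.1%), a ratio of 1.21 (1.20 to 1.21). In the G2/M-like state led by Cenpa and Cdc20, the shares were 15.7% (15.6% and 15.8%) and 18.9% (18.7% and 19.1%), a ratio of 1.20 (1.20 to 1.21), and all 83 members had a ratio above 1, against 41.7% of all genes there. Malat1, Gm42418, Gm26917, AY036118 and Lars2 together held 4.37% of control and 7.44% of NF2 KO UMIs in the hypoxia-like state, and 2.48% and 2.84% in this G2/M-like state. Their part in these ratios was not tested.

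The other states with a higher share had smaller ratios. They were 1.16 (1.15 to 1.16) in the interferon-like cells led by Ifit genes and Rsad2, 1.14 (1.13 to 1.14) in the capillary-like cells with Col13a1, Ramp3 and Ednrb, and 1.12 (1.12 to 1.13) in the interferon-like cells with Cd74 and Cxcl9. The G2/M-like cells with histone genes had 1.11 (1.11 to 1.12) and the S phase-like cells 1.11 (1.10 to 1.11). S phase-like cells had the highest share in the control among these 8 states, at 17.8%, and were second to the hypoxia-like cells in the NF2 KO library, at 19.7%.

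Venous-like cells, with Ackr1 and Selp, were the exception. Their share was 17.5% in the control (17.8% and 17.4% by run) and 17.5% in the NF2 KO library (18.5% and 17.0%), a ratio of 0.997 (0.993 to 1.002) with control runs inside the range of the NF2 KO runs. Of the 83 members, 40 had a ratio above 1 there (48.2%, against 40.9% of all genes). Leaving out NF2 KO run 2 gave a ratio of 1.05 and leaving out NF2 KO run 1 gave 0.967, and the ratio was 1.02 without mitochondrial transcripts, Malat1, Gm42418, Gm26917 and Lars2 in the total. The venous-like cells were shallower than most states, with medians of 12190 and 12203 UMIs. The difference between the venous-like and the other states was not tested.

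**Figure D5:**
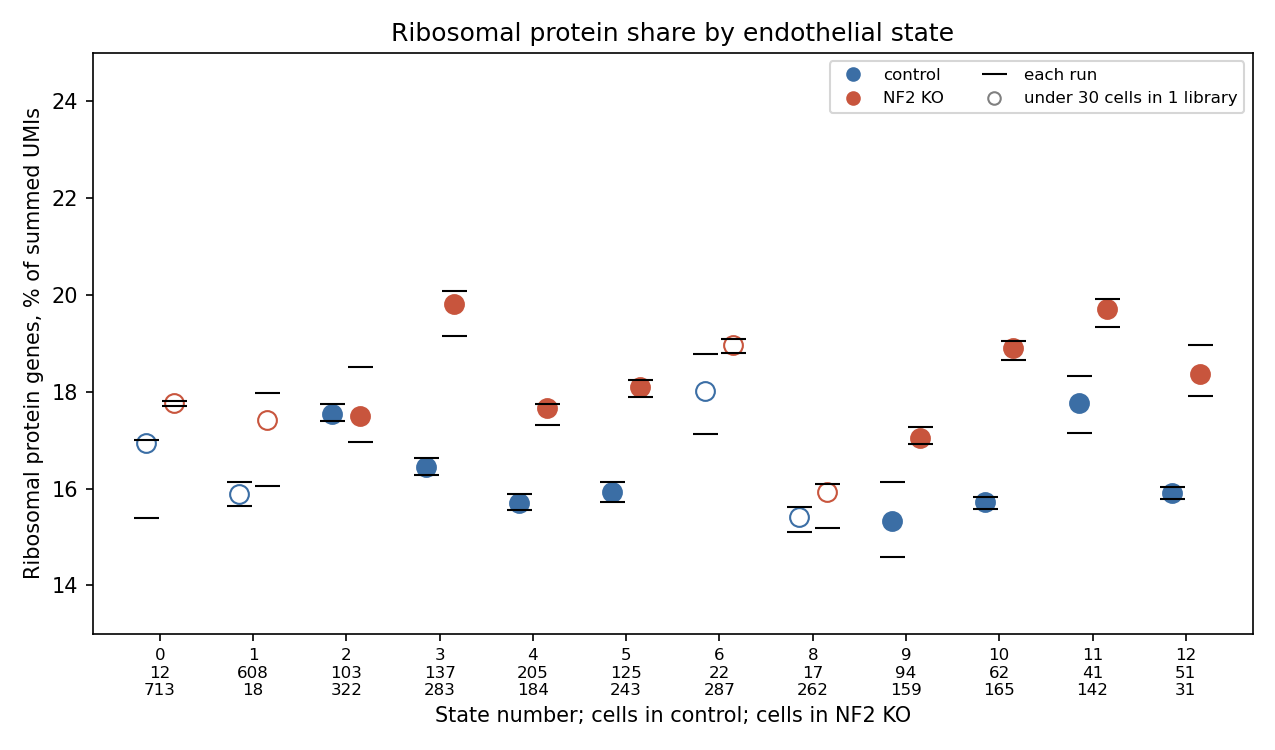
Share of summed UMIs from ribosomal protein genes (vertical axis, percent, starting at 13) in the 12 states (horizontal axis, with the number of control and NF2 KO cells). Circles are libraries, short lines their runs, and open circles states with under 30 cells of 1 library. States 2 (venous-like), 3 (hypoxia and glycolysis-like), 4 and 12 (interferon-like), 5 and 8 (capillary-like), 9 and 10 (G2/M-like) and 11 (S phase-like) are named, and 0, 1 and 6 are not. NF2 KO lies above control in every filled state but the venous-like one.

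The remaining 4 states came mostly from 1 library, so their values may be those of a library rather than of a cell state. The unnamed state led by F2rl1, Cldn4 and Chga (12 control and 713 NF2 KO cells) had a share of 17.8% in its NF2 KO cells. The unnamed state led by Gal, Kcnj8 and Piezo2 (608 and 18 cells) had 15.9% in its control cells. The unnamed state led by Odc1, Srm and Esm1 (22 and 287 cells) had 19.0% in the NF2 KO library, and the capillary-like state with Lpl and Cd36 (17 and 262 cells) 15.9%, the lowest NF2 KO share of the 12 states. Without these 4 states the ratio of the members' share was 1.14. With each state weighted by its UMIs in both libraries together it was 1.10.

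Members differed in how far they varied over the states. Expressed as a share of member UMIs, the median member varied over the states with at least 50 cells of a library by a coefficient of variation of 5.26% in the control (8 states) and 5.57% in the NF2 KO library (10 states). Among members of at least 20 CPM the most variable were Rpl7l1 (29.3%), Rpl29 (25.8%), Rps19bp1 (23.4%) and Rps27l (23.0%) in the control, and Rps27l (24.0%), Rpl7l1 (20.3%) and Rps19bp1 (17.7%) in the NF2 KO library. Counting error is part of these values and weighs most on rare members. Rpl7l1 and Rps19bp1 were at 76.7 and 40.6 CPM in the control. Rpl29 also differed 4.44-fold between the control runs, whose cells were not spread alike over the states. Rps2, a small-subunit protein near the messenger RNA entry, varied by 12.1% in the NF2 KO library, from 2417 CPM in the Lpl and Cd36 state to 4124 CPM in the S phase-like state. The steadiest were Rpl15 (2.12%) in the control and Rps23 (1.69%) in the NF2 KO library.

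Genes that build or serve the ribosome were counted on the same scale, beside the 44% of all genes with a ratio above 1. Of 46 ribosome biogenesis genes with at least 20 CPM, 42 had a ratio above 1 (median log2 ratio 0.20) and none passed the size rule. Nop58 and Fbl, core proteins of the complexes that methylate ribosomal RNA, had ratios of 1.47 (1.41 to 1.54) and 1.27 (1.21 to 1.33), and the nucleolar protein gene Gnl3 one of 1.36 (1.29 to 1.44). Among ribosomal genes outside the rule, Fau had a ratio of 1.16 (1.14 to 1.17) and Rack1 one of 1.05 (1.04 to 1.06). Of 20 translation factors whose messages are of the TOP kind, 17 had a ratio above 1 (median 0.10) and 0 passed the size rule. Npm1 was at 1.23 (1.21 to 1.24) and Tpt1 at 0.913 (0.907 to 0.918), with both NF2 KO runs below both control runs.

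Mitochondrial ribosomal proteins, which are encoded by other genes and make up another ribosome, had 58 of 72 ratios above 1, a median of 0.09 and 0 past the size rule. Of 31 other initiation factors 21 were above 1 (median 0.06), and of 14 mTORC1 pathway genes 6 were (median −0.02), with none past the size rule in either list. Of 5 genes in the list of Myc and its partners, 2 had a ratio above 1 (median −0.12). Myc itself, a transcription factor that drives ribosome production, was the single one to pass. It was at 32.0 CPM in control cells and 51.3 CPM in NF2 KO cells, a ratio of 1.60 (1.49 to 1.73). In the list of integrated stress response genes, Nupr1 (1.99, 1.81 to 2.19) and Cebpb (1.66, 1.57 to 1.77) passed of 9. With 1 library per group these ratios, like those of the ribosomal protein genes, describe the 2 libraries and not the effect of the knockout.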

How the data were processed

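Single-cell RNA was measured in 1 control and 1 NF2 KO library of sorted tumour endothelial cells. The submitters' processing notes name Cell Ranger 3.0.0, Seurat 3.1.1 and mm10, without settings. The authors deposited natural log values: per the values, ln of 1 plus 10000 times a count over the cell's total. Whole UMI counts were recovered from them (100% within 0.01 UMI). The deposited 2826 control and 3368 NF2 KO cells held 34649992 and 58907098 UMIs. Before filtering, 1 barcode was shared between the libraries and 1 between the runs of each library.

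Cells passed (2572 and 3312) with at least 500 genes and 1000 UMIs and no more than 10% of UMIs from mitochondrial genes. An automatic doublet threshold marked 0.0778% and 0% and so had not worked, and the top 5% by doublet score were removed (129 and 166). Clustering (scanpy 1.11.5, 2000 variable genes without the members, 30 components, 15 neighbours, Leiden resolution 0.8) left out clusters with a median depth under 0.333 of their own sample's or led by markers of other cells: 966 control (39.5%) and 337 NF2 KO cells (10.7%). State names rest on at least 3 fixed markers among 30 leading genes.

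Counts were summed per library. Intervals are exact (Poisson for CPM, conditional for ratios, Clopper-Pearson for shares). Named were members past the size rule, the 5 highest and 5 lowest ratios, the 5 most abundant and the paralogs, and genes of other lists past the size rule (at most 4 a list); other genes were chosen after their values were seen. Some genes that this rule names are not reported here. Members and lists were chosen with earlier results of these data known. The interval and size rule were tested on simulated Poisson counts, the model that the interval assumes. Spread between cells was not simulated, so that test cannot show whether the interval fits these data. Transcript lengths are from GENCODE M21, start sites from RefSeq. Alternatives changed cells, doublets, depth, denominator, weights, scaling, minimum CPM, fold and runs.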

Additional observations from a re-analysis of the deposited data

How the results depend on the processing

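The NF2 KO share of member UMIs was above the control under each alternative run. Its ratio of 1.13 became 1.11 with all deposited cells, 1.11 with shallow clusters and doublets kept and 1.12 without doublet removal. It was 1.14 in cells of at least 10000 UMIs, 1.08 in cells thinned to 2000 UMIs and 1.08 as a mean over cells. With each depth bin or each cluster weighted by its UMIs in both libraries together, it was 1.13 and 1.10. These weights are the same in both libraries, but bins and clusters with more UMIs count more. An equal weight for each bin was not run. The ratio was 1.15 without mitochondrial genes, Malat1, Gm42418, Gm26917 and Lars2 in the total. Without control run 1 and run 2 it was 1.12 and 1.13. Added after seeing the data, it was 1.14 without the states with under 30 cells in 1 library and 1.14 without cells under 10% member UMIs. The last of these cuts picks cells by the share itself and is no independent check. The median log2 ratio of 0.17 became 0.15 with all deposited cells, 0.15 with shallow clusters and doublets kept and 0.12 when thinned. It was 0.20 without the mitochondrial genes and those 4 transcripts, 0.11 as a mean over cells and 0.14 with the same cluster weights in both libraries. It was 0.21 under median-of-ratios scaling and 0.0017 on the scale of member UMIs. The count of 0 past the size rule became 1 (Rpl29) without control run 1, without control run 2 and without NF2 KO run 2, 4 at a ratio of 5 to 4 and 2 (Rpl3l and Rpl39l) with no minimum CPM. Over 23 named members and 18 alternatives, 168 of 414 ratios stayed inside their main interval; Rpl29 alone moved by over 1.5-fold. The share was higher in NF2 KO in 8 of 8 states without the mitochondrial genes and those 4 transcripts in the total.

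No paired analysis was possible because each group holds 1 library. Depth is not the limit for most members, whose intervals are within a few percent of their ratios; the single library per group is. Rpl3l and Rpl39l rest on 15 to 112 UMIs per library.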

Other observations

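The cells left out of the comparison, mostly shallow, had a higher share of ribosomal protein UMIs than the cells described. The largest cluster left out, with 647 control and 194 NF2 KO cells, was led by the neutrophil genes S100a9 and S100a8. In the 966 left-out control cells, with a median of 1810 UMIs, members were 18.6% of the summed UMIs and the median cell had 17.7% (quartiles 15.4% and 20.6%). In the 337 left-out NF2 KO cells, with a median of 2565 UMIs, they were 20.4%, and the median cell had 21.0% (quartiles 14.5% and 25.1%).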
